A study of Homo sapiens with 6 samples.

Results

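Classical cadherins are calcium-dependent adhesion proteins that join neighbouring cells at adherens junctions, where their tails hold p120-catenin and beta-catenin, and alpha-catenin links beta-catenin to actin. Epithelia carry E-cadherin (CDH1), and basal prostate cells also carry P-cadherin (CDH3). In an epithelial-mesenchymal transition, E-cadherin is lost while N-cadherin (CDH2) or OB-cadherin (CDH11) is gained, an exchange known as the cadherin switch. The genes described here were chosen as a named list of 10: the cadherin genes CDH1, CDH2, CDH3, CDH4, CDH6, CDH11 and CDH13 and the catenin genes CTNNB1, CTNNA1 and CTNND1. A gene counted as measured where the platform annotation gave it a feature of its own, and its brightest such feature was used, which left 7 of the 10 genes among 18417 genes in all. Each of the 7 had 1 feature. CTNND1 (p120-catenin) had only a feature that the annotation shares with another gene, and CDH4 and CDH13 were not named by the annotation, so these 3 were not analysed here.

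Total RNA was measured on 6 single-colour arrays, 3 of CAsE-PE and 3 of RWPE-1. CAsE-PE cells are RWPE-1 cells made malignant by continuous culture in 5 µM sodium arsenite, sampled after 30, 33.5 and 35 weeks. RWPE-1, a human prostate epithelial line immortalised with papillomavirus sequences, was untreated and was sampled at passages 18, 38 and 42. Both groups descend from 1 line, share its immortalising genes and grew in the same serum-free keratinocyte medium. The labels give neither the passage of the exposed cells nor untreated cells of the same time in culture. They do not say whether the arrays of a group came from separate cultures, so each p-value rests on array-to-array spread. The arrays of a group differ in passage or weeks, so that spread mixes any change over passage or weeks with technical variation. It need not measure the spread between separate cultures.

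Array medians lay between 91.7 and 94.7 intensity units on all arrays but that of passage 42, at 97.2, and having 3 arrays per group limits how precise any value can be. Without detection calls, low intensities could not be told from background, and "dim" here means among the 33.3% of genes with the lowest mean over all arrays. The basal keratin gene KRT5 averaged log2 levels of 11.93 in CAsE-PE and 12.05 in RWPE-1, and 0 of 5 measured epithelial markers (EPCAM, KRT5, KRT8, KRT18 and KRT19) passed the test between groups. Their summed intensity was 10570 to 12270 in CAsE-PE and 12026 to 12425 in RWPE-1. KRT19 alone did not overlap, at 2399 to 3076 in CAsE-PE and 3315 to 3814 in RWPE-1 (adjusted p = 0.0618 in the limma test below).

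Differences below are CAsE-PE minus RWPE-1 in log2(intensity + 1), n = 3 per group. The standard error (SE) is that of a limma fit over all genes, which draws each gene's variance towards a value shared by all. A gene rose or fell where its Benjamini-Hochberg adjusted p was under 0.05. The comparison asks how the adhesion genes of the malignant cells differ from those of the immortal line. E-cadherin was higher in CAsE-PE, while P-cadherin, K-cadherin (CDH6), OB-cadherin and beta-catenin were lower. N-cadherin did not pass the test, and its intensities overlapped between the groups. In counts, 1 of the 7 genes rose, where 9.04% of all genes did, and 4 fell, where 8.71% of all genes did. Their median difference was −0.34, beside −0.06 over all genes. For 6 of the 7 genes the groups were fully separate: 2 lay higher in CAsE-PE, where 16.1% of all genes did so, and 4 lay lower, where 22.8% did so. The list was chosen with earlier results of these arrays known, so these counts are not independent evidence.

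**Figure D1:**
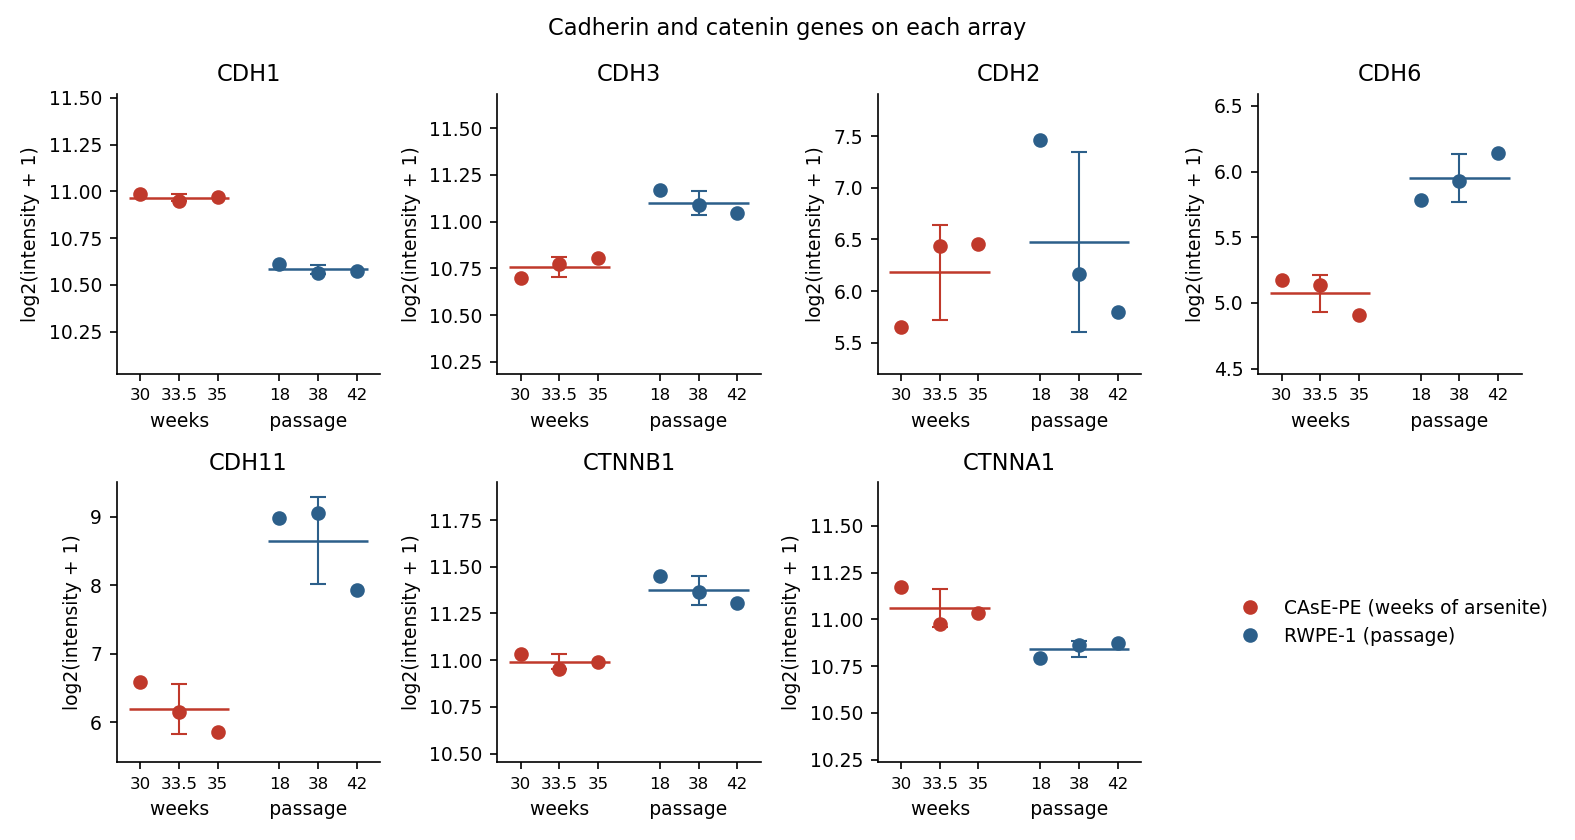
log2(intensity + 1) of the 7 measured cadherin and catenin genes on each array, CAsE-PE by weeks of arsenite on the left and RWPE-1 by passage on the right; each panel has its own vertical range, lines are group means and bars are 1 SD (n = 3). CDH2 is the panel in which the groups overlap, with its highest value at passage 18, and CDH11 has the widest gap between groups.

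CDH1, which encodes E-cadherin, the main adhesion receptor of epithelial junctions, had intensities of 2025 (30 weeks), 1973 (33.5 weeks) and 2006 (35 weeks) in CAsE-PE. In RWPE-1 it had 1562 (passage 18), 1512 (passage 38) and 1523 (passage 42), and the arrays follow this order below. All CAsE-PE arrays lay above all RWPE-1 arrays, and within each group the highest array was no more than 1.03 times the lowest. The rise was 0.39 (SE 0.09, adjusted p = 0.0186), or 1.31-fold, with a 95% interval of 0.18 to 0.59. Omitting passage 38 (adjusted p = 0.0811), passage 18 (0.0526) or 35 weeks (0.0646) ended the call, while the difference stayed between 0.38 and 0.40. CDH1 lies on chromosome 16 among genes that were themselves higher. With the median shift of its 24 nearest genes that were not dim (0.18) taken off, it differed by 0.20 (adjusted p = 0.216).

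CDH3, the gene of P-cadherin and the neighbour of CDH1 on chromosome 16, differed in the other direction. It had 1663, 1750 and 1786 in CAsE-PE, against 2304, 2176 and 2113 in RWPE-1. Every CAsE-PE array lay below every RWPE-1 array. The fall was −0.34 (SE 0.10, adjusted p = 0.0369), or 1.27-fold. Leaving out any 1 array other than that of passage 42 ended the call, with adjusted p-values up to 0.121 without passage 18. With the shift of its neighbours (0.19) taken off, the fall was deeper, at −0.54 (adjusted p = 0.00638). TANGO6, the next measured gene beyond CDH1, was higher by 0.51 (adjusted p = 0.0137), and ZFP90, on the far side of CDH3, differed by 0.37 (adjusted p = 0.162).

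CDH11 encodes OB-cadherin, a cadherin of mesenchymal cells and osteoblasts, and had the deepest fall of the 7 genes. Its intensities were 94.9, 69.6 and 57.2 in CAsE-PE, against 503.1, 532.4 and 242.1 in RWPE-1. The CAsE-PE values were all below the lowest RWPE-1 value, that of passage 42, which was itself under the values of both earlier passages. The mean log2 level was 6.20 ± 0.36 in CAsE-PE and 8.65 ± 0.63 in RWPE-1 (SD), a difference of −2.46 (SE 0.29, adjusted p = 0.000643), or 5.49-fold. With each array left out in turn the difference lay between −2.82 and −2.26, and it passed in all 6 fits, with adjusted p-values up to 0.00405. Its neighbours had a median shift of 0.13, opposite in sign to its own change.

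Of the nearest measured genes on either side of CDH11, both are cadherin genes: CDH8, a type II cadherin known from the nervous system, fell by 0.94 (SE 0.13, adjusted p = 0.00121), and CDH5, the endothelial cadherin, differed by −0.15 (SE 0.12, adjusted p = 0.405). CDH8 was dim, at 30.8, 35.0 and 30.8 in CAsE-PE and 53.0, 68.9 and 67.7 in RWPE-1. Fibroblasts express CDH11 and CDH2, and their markers were read beside it. Over all genes, 9.04% rose and 8.71% fell. Of 8 fibroblast markers (COL1A1, COL1A2, COL3A1, DCN, LUM, PDGFRA, PDGFRB and FAP), 0 rose and 1 fell, PDGFRB (−0.32, SE 0.09, adjusted p = 0.0479). Their summed intensity was 517 to 538 in CAsE-PE and 525 to 550.5 in RWPE-1, so the groups overlapped, and 7 of the 8, all but COL1A1, were dim.

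CDH6 encodes K-cadherin, a type II cadherin first known from kidney. It had 35.0, 34.2 and 29.1 in CAsE-PE, against 54.1, 60.0 and 69.7 in RWPE-1, with no overlap. The fall was −0.88 (SE 0.13, adjusted p = 0.00166), or 1.84-fold, and it passed with each array left out, between −0.96 and −0.78. CDH6 was the one dim member, and the median difference of the 6139 dim genes was −0.12 and 6.65% fell. On the log2(intensity + 1) scale its fold is understated, and how much of its signal is background was not tested.

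CDH2 encodes N-cadherin, whose gain is the other side of the classical cadherin switch. In CAsE-PE it had an intensity of 49.2 after 30 weeks, 85.8 after 33.5 and 86.9 after 35. In RWPE-1 the passage 18 array read 175.3, the passage 38 array 70.9 and the passage 42 array 54.7. The passage 18 array stood above the other 5, among which the CAsE-PE and later RWPE-1 values were interleaved. The group difference was −0.29 (SE 0.39, adjusted p = 0.627), with a 95% interval of −1.17 to 0.58 that leaves its direction unresolved. Its sign rests on passage 18: without that array the difference was 0.20 (adjusted p = 0.620). The CAsE-PE mean differed by −1.28 from passage 18 alone and by 0.20 from the mean of the later passages.

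Within RWPE-1, CDH2 at passage 18 was 2.47 times its intensity at passage 38 and 3.20 times that at passage 42. A limma model with a passage slope inside RWPE-1 and a weeks slope inside CAsE-PE gave −0.07 log2 units per passage (adjusted p = 0.0381). Passage slopes passed for 4 genes of 18417, or 0.0217%, and 1072 had an unadjusted p under 0.05. The model has 1 array per passage and 2 residual degrees of freedom, and CDH2 was singled out by passage with earlier results of these arrays known, so this slope is not independent evidence. It did not pass after quantile normalisation (−0.07, adjusted p = 0.0688) or with dim genes left out (−0.07, adjusted p = 0.0556). Across weeks of exposure CDH2 had a slope of 0.17 log2 units per week, the 30-week array being the lowest of all 6, and this did not pass (adjusted p = 0.120, unadjusted p = 0.00142). Weeks slopes passed for 46 genes, or 0.250%.

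The other 6 members showed no passage or weeks slope past the threshold. Their adjusted p-values were 0.858 or more for passage and 0.538 or more for weeks, the lowest in each case belonging to CDH11. In log2 units, the range over the 3 passages was 1.66 for CDH2 and 1.13 for CDH11, against 0.36 for CDH6 and 0.15 or less for CDH1, CDH3, CTNNB1 and CTNNA1. The spread within RWPE-1 thus exceeded the group difference for CDH2 and not for CDH11.

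**Figure D2:**
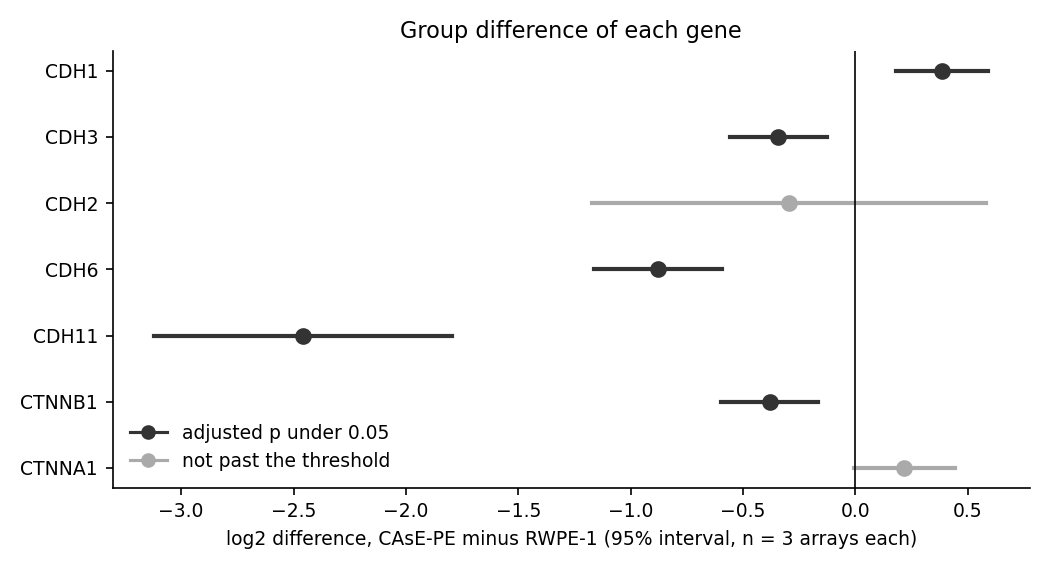
Log2 difference (CAsE-PE minus RWPE-1, horizontal axis) of each member with its 95% interval from the limma fit, n = 3 arrays per group; dark points have an adjusted p under 0.05. CDH2 has the widest interval, from −1.17 to 0.58, and CDH11 lies farthest from 0, at −2.46.

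The RefSeq promoter table (GRCh38.p14) held a window at the annotated gene start of 3 measured members, CDH2, CTNNB1 and CTNNA1, and all 3 are shown so that the N-cadherin gene can be set beside the catenin genes. Each run is the 250 bases before the gene start, at chr18:28177131-28177380 on the minus strand for CDH2, at chr3:41199255-41199504 on the plus strand for CTNNB1 and at chr5:138753175-138753424 on the plus strand for CTNNA1. Capitals mark matches, on either strand, to the GC box GGGCGG bound by SP1, the E-box CAGGTG bound by Snail and ZEB factors, or the TATA box TATAAA.
CDH2: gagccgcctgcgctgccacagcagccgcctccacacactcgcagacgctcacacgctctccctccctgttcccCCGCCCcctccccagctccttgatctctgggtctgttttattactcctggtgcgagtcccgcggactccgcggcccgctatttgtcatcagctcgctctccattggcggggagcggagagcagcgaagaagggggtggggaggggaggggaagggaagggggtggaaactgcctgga
CTNNB1: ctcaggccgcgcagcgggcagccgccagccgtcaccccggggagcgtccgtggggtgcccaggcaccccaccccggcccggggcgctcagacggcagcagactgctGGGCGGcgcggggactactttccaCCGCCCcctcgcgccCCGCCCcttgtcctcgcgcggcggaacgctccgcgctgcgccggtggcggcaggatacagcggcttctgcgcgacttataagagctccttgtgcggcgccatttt
CTNNA1: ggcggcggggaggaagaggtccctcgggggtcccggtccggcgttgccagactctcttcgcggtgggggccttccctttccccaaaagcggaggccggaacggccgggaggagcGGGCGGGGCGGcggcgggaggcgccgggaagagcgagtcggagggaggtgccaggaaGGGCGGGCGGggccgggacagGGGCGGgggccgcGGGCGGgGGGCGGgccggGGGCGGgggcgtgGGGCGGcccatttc
The CDH2 window held 1 GC box, the CTNNB1 window 3 and the CTNNA1 window 9, counting overlapping matches, and none of the 3 held a CAGGTG or a TATAAA. Of 35116 windows of the same length, 42.6% held the GC box, 17.5% the E-box and 10.7% the TATA box. GC content was 66% for CDH2, 74.4% for CTNNB1 and 80% for CTNNA1, where the median window had 58%. A match is a match of letters only.

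CTNNB1 encodes beta-catenin, which binds cadherin tails and is also the transcriptional effector of Wnt signalling. It had 2093, 1983 and 2030 in CAsE-PE, against 2802, 2632 and 2527 in RWPE-1, and the groups did not overlap. The fall was −0.38 (SE 0.10, adjusted p = 0.0242), or 1.30-fold, with a 95% interval of −0.60 to −0.17. The call was lost without passage 18 (adjusted p = 0.0900), passage 38 (0.0851), 33.5 weeks (0.0741) or 35 weeks (0.0771). CTNNA1, the gene of alpha-E-catenin, had 2312, 2013 and 2096 in CAsE-PE, against 1775, 1864 and 1873 in RWPE-1. Each CAsE-PE array was above each RWPE-1 array, yet the difference of 0.22 (SE 0.10, 95% interval −0.01 to 0.44) did not pass (adjusted p = 0.166). The array at 30 weeks was the highest for both catenin genes within CAsE-PE.

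**Figure D3:**
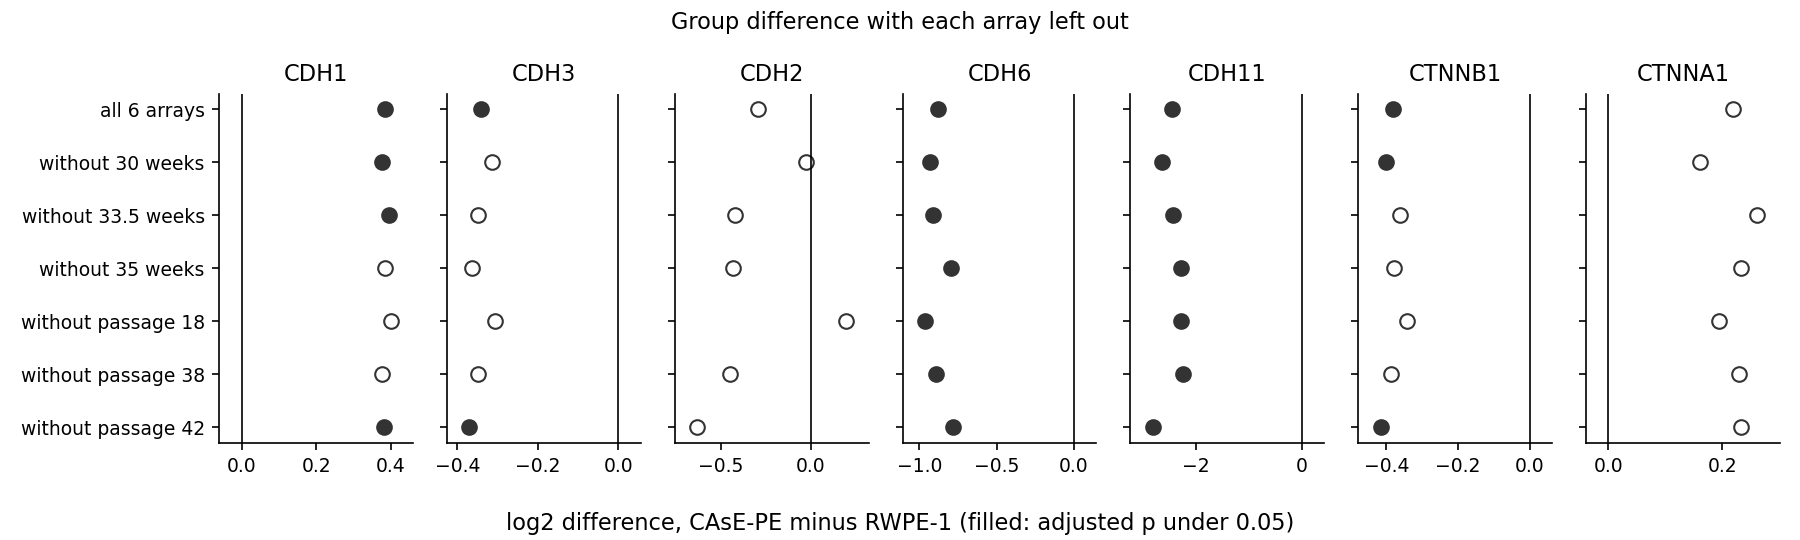
Log2 difference (CAsE-PE minus RWPE-1) of each member in the fit of all 6 arrays and with each array left out, filled where the adjusted p was under 0.05; each panel has its own horizontal range. CDH6 and CDH11 stay filled throughout, CDH1, CDH3 and CTNNB1 lose the call in some fits, and CDH2 crosses 0 without passage 18.

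Other genes of the complex were read from 7 lists around it, to be set beside the shares of all genes that rose (9.04%) and fell (8.71%). Where omitting 1 array ended a call, the omission with the highest adjusted p is given, and others could end it too. Over such fits the falls numbered 1 to 3 among junction linkers, 1 to 3 among turnover genes, 1 to 2 among repressors and 1 to 4 among TCF factors and targets, and the rises numbered 1 to 4 among epithelial factors, each at its lowest without passage 38. Of 12 other classical cadherins, 0 rose and 2 fell, with a median difference of −0.17. The 2 were CDH8 and CDH10, a further nervous-system cadherin, which had 23.7, 23.5 and 18.1 in CAsE-PE against 48.1, 49.1 and 54.4 in RWPE-1 (−1.19, SE 0.13, adjusted p = 0.000346). Of the 12 genes 9 were dim, CDH8 and CDH10 among them.

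Of 17 other catenins and linkers of the junction, 0 rose and 2 fell, with a median of −0.10. NECTIN3, an adhesion molecule that helps to build adherens junctions, had 61.7, 55.4 and 61.1 in CAsE-PE against 244.8, 243.4 and 185.6 in RWPE-1. Its fall of −1.89 (SE 0.13, adjusted p = 2.92e-05) held with each array left out. The actin-binding gene LIMA1 (EPLIN) fell by 0.54 (SE 0.13, adjusted p = 0.0208), a call lost without passage 38 (adjusted p = 0.0846) and with the shift of its neighbours taken off (−0.42, adjusted p = 0.0814). JUP, plakoglobin, differed by −0.10 (adjusted p = 0.542) and VCL, vinculin, by −0.40 (adjusted p = 0.0544). VCL lay near the threshold: it passed after quantile normalisation (adjusted p = 0.0280) and in 2 of 6 fits with an array left out, and did not with the shift of its neighbours taken off (−0.22, adjusted p = 0.270).

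Among 11 measured genes of cadherin shedding, phosphorylation and trafficking, 2 rose and 3 fell, with a median of 0.18. PTPRM, a receptor phosphatase that binds cadherin complexes, had 254.7, 151.9 and 182.1 in CAsE-PE against 384.7, 449.5 and 450.2 in RWPE-1 (−1.15, SE 0.18, adjusted p = 0.00239). The phosphatase genes PTPN1 (−0.42, adjusted p = 0.0190) and PTPRF (−0.41, adjusted p = 0.0164) fell as well, both lost without passage 38 (adjusted p = 0.0809 and 0.0823). CBLL1, the ubiquitin ligase Hakai that acts on E-cadherin, rose by 0.87 (SE 0.17, adjusted p = 0.00723). Its neighbours shifted by 0.85, and with that taken off CBLL1 differed by 0.02 (adjusted p = 0.958). HGS, of endosomal sorting, was higher by 0.36 (adjusted p = 0.0476), a call lost with any 1 array left out (up to adjusted p = 0.115, without 33.5 weeks) and after quantile normalisation (0.0568).

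Of 12 transcriptional repressors of CDH1, 0 rose and 3 fell, beside 8.71% of all genes that fell, with a median of −0.17. Of the 12 genes 5 were dim, KLF8 and ZEB1 among them. TCF4, which encodes the E2-2 factor, had 69.6, 79.7 and 94.9 in CAsE-PE against 174.1, 156.2 and 175.5 in RWPE-1 (−1.05, SE 0.13, adjusted p = 0.000753). KLF8 fell by 0.52 (adjusted p = 0.0286, and 0.0855 without passage 38) and TWIST2 fell by 0.45 (adjusted p = 0.0404, and 0.132 without 35 weeks). SNAI2, the gene of Slug, differed by −0.18 (SE 0.09, adjusted p = 0.227). ZEB1 differed by −0.43 (SE 0.17, adjusted p = 0.121), and by 0.14 with the shift of its neighbours (−0.57) taken off.

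Epithelial transcription and splicing factors moved both ways: of 10 measured, 3 rose and 1 fell, with a median of 0.26. GRHL1, a grainyhead factor of epithelial barrier genes, had 403.9, 306.9 and 368.5 in CAsE-PE against 91.3, 77.8 and 110.6 in RWPE-1 (1.94, SE 0.15, adjusted p = 6.51e-05). GRHL3 rose by 0.81 (adjusted p = 0.0245, and 0.0965 without passage 38) and the splicing regulator ESRP2 by 0.36 (adjusted p = 0.0353). The ESRP2 call was lost with any 1 array left out (up to adjusted p = 0.135, without passage 38) and after quantile normalisation (0.0567). EHF, an ETS factor of epithelia, had 342.4, 117.7 and 179.7 in CAsE-PE against 1053, 1038 and 1050.5 in RWPE-1 (−2.43, SE 0.31, adjusted p = 0.000895). GRHL2, a direct activator of CDH1, differed by −0.04 (SE 0.12, adjusted p = 0.822). TP63 and ESRP1 were not analysed here.

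**Figure D4:**
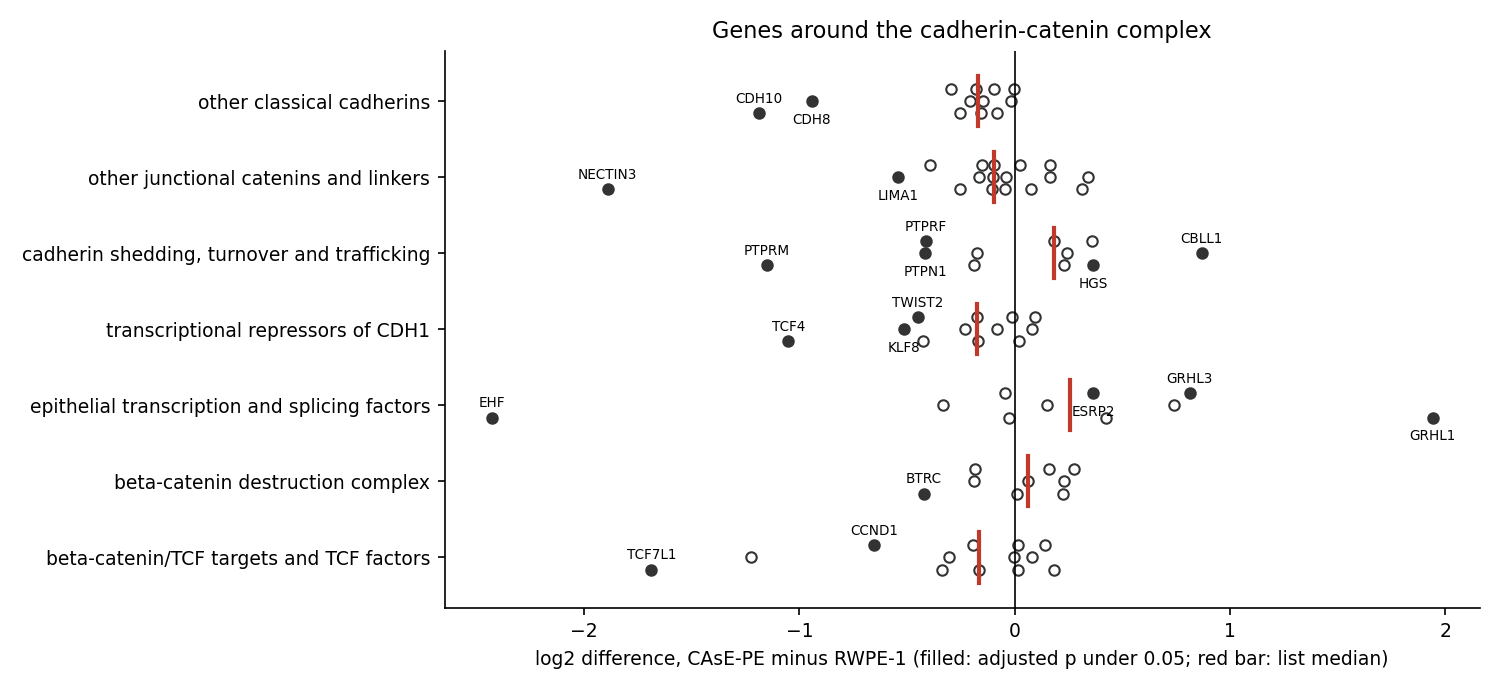
Log2 difference (CAsE-PE minus RWPE-1) of every measured gene in the 7 lists around the cadherin-catenin complex; filled and named points have an adjusted p under 0.05 and red bars are list medians, which run from −0.17 to 0.26. Most points lie near 0, with NECTIN3, TCF7L1, EHF and GRHL1 far from it.

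Of 9 genes of the destruction complex, 0 rose and 1 fell, the ubiquitin ligase subunit gene BTRC (−0.42, SE 0.10, adjusted p = 0.0172, and 0.0725 without 35 weeks). The list median was 0.06. Of 13 measured TCF factors and beta-catenin targets, 0 rose and 2 fell, with a median of −0.17. TCF7L1, a TCF factor that mostly represses, had 117.9, 130.1 and 110.4 in CAsE-PE against 406.4, 352.0 and 403.0 in RWPE-1 (−1.69, SE 0.11, adjusted p = 2.40e-05). CCND1, cyclin D1, fell by 0.65 (SE 0.17, adjusted p = 0.0299, and 0.113 without passage 38). After removal of the shift of nearby genes, HGS, KLF8, TWIST2, ESRP2, BTRC and CCND1 no longer passed, with adjusted p-values of 0.0523 (CCND1) to 0.246 (BTRC). AXIN2, the usual marker of Wnt signalling through beta-catenin, was dim and differed by −0.19 (SE 0.10, adjusted p = 0.238). Its neighbours had a median shift of 0.37, opposite in sign to its own difference. DKK1, of the target list, differed by −1.22 (SE 0.37, adjusted p = 0.0517) and did not pass. It had 491, 1387 and 1328 in CAsE-PE against 2750, 2614 and 1609 in RWPE-1. Genes of other lists lay as near the threshold in the upward direction and did not pass either. Among them were ARVCF (0.34, adjusted p = 0.0510), OVOL1 (0.42, 0.0524), EXOC3 (0.36, 0.0569) and KLF4 (0.74, 0.0593). Their neighbours had median shifts of 0.22, −0.17, 0.19 and 0.24, in that order.

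The genes whose log2 values over the 6 arrays ran most like those of CDH2 were PLOD2, POFUT4, FBN1, TGM2 and IFIT5. Their Pearson's r was 0.94, 0.91, 0.91, 0.90 and 0.88, in that order. The search covered 1619 genes that were not dim and ranged over at least 1 log2 unit. PLOD2, a collagen lysyl hydroxylase, had 578, 931 and 994 in CAsE-PE and 1261, 715 and 534 in RWPE-1, so it too was highest at passage 18 and lower at 30 weeks than later. TGM2, a transglutaminase, had 189, 248 and 404 in CAsE-PE and 1052, 463 and 184 in RWPE-1. For CDH11 they were ENTPD3, FGF5, KCNQ5, RNASE7 and VEGFC, with r of 0.99 for each. FGF5, a fibroblast growth factor, had 47.9, 43.0 and 32.6 in CAsE-PE against 421.2, 325.2 and 168.4 in RWPE-1. With 6 arrays that share their group means, these correlations describe the arrays and carry no test.

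**Figure D5:**
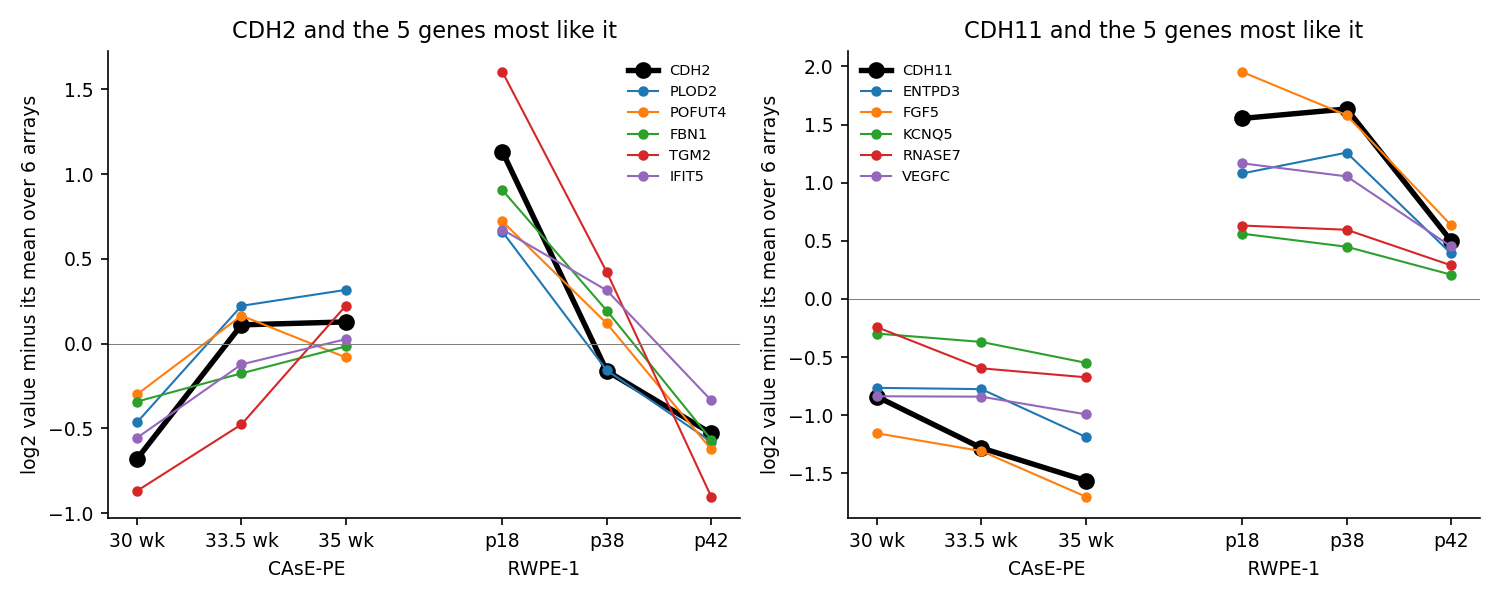
Log2 values less each gene's mean over the 6 arrays, for CDH2 (left) and CDH11 (right) in black and the 5 genes with the highest Pearson's r to each in colour, CAsE-PE arrays left and RWPE-1 arrays right in each panel. The CDH2 group peaks at passage 18, and the CDH11 group lies below 0 on all CAsE-PE arrays and above 0 on all RWPE-1 arrays.

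The other marker lists are set beside the 9.04% of all genes that rose and the 8.71% that fell. Of 6 endothelial markers 0 passed, with summed intensities of 328 to 362 in CAsE-PE and 346 to 407 in RWPE-1. Of 5 measured leukocyte markers 2 fell, CD68 (−0.89, SE 0.16, adjusted p = 0.00516) and CD14 (−0.43, SE 0.11, adjusted p = 0.0262), while PTPRC, which marks all leukocytes, had mean log2 levels of 3.78 in CAsE-PE and 3.93 in RWPE-1. The summed intensity of these 5 markers was 652 to 945 in CAsE-PE and 1198 to 1464 in RWPE-1. CD68 made up most of it, at 803, 635 and 534 in CAsE-PE and 1279, 1042 and 1303 in RWPE-1. The other 4, CD14 and PTPRC among them, were dim. Of 5 measured neuroendocrine markers ENO2 rose by 0.47 (SE 0.10, adjusted p = 0.0130), with list sums of 655 to 723 in CAsE-PE and 642 to 708 in RWPE-1. The other 4 did not pass and differed downwards: CHGB (−0.51), SYP (−0.34), CHGA (−0.29) and INSM1 (−0.16). Genes near them had median shifts of −0.59 (CHGB), −0.18 (SYP), −0.003 (CHGA) and −0.51 (INSM1). For CHGB and INSM1 the shift of nearby genes was thus lower than their own difference. The list median was −0.29, and 3 of the 5 markers were dim. The part of other cells in the cadherin values was not tested.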

How the data were processed

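The authors deposited 1 linear intensity per feature and array, for 33252 features on 6 arrays; intensities were taken as linear from their range, which reaches 16617. Per the labels, RNA was extracted with Trizol and a column kit and labelled with biotin; how background and scale were treated is not stated in them. The platform annotation gave 1 gene symbol to 19460 features, several to 1754 and none to 12038; of the first, 19429 had their Entrez identifier in RefSeq (GRCh38.p14), and 0 symbols changed. The brightest single-symbol feature stood for each of 18417 genes.

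The deposited intensities were used as log2(intensity + 1), which understates changes of dim genes. The phenotype label set the groups. limma 3.58.1 in R 4.3.3 (lmFit, eBayes, two-sided, 4 residual degrees of freedom) compared them over all genes, with Benjamini-Hochberg adjustment. A second limma model added passage and weeks. All members were named; from each list, up to 3 called rises and 3 called falls of the largest size were named, plus JUP, VCL, SNAI2, ZEB1, GRHL2 and TP63 (the last not analysed here); for likeness, the 5 highest correlations. AXIN2, DKK1, ARVCF, OVOL1, EXOC3, KLF4 and the marker and neighbouring genes were named after their values were seen. Members and lists were chosen with earlier results of these data known. The fits were tested on simulated data. Neighbours were the 12 nearest genes on each side outside the dimmest 33.3%, in RefSeq order. Alternatives were quantile normalisation, median centring, a pseudocount of 16, dim genes left out, feature means, another variance model, array weights, the shift of neighbours taken off and each array left out; applying them to the list genes was decided after the data were seen. Figures were drawn with matplotlib 3.10.9 in Python 3.11.15.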

Additional observations from a re-analysis of the deposited data

How the results depend on the processing

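With each array left out in turn, the differences ranged from 0.38 to 0.40 for CDH1, −0.63 to 0.20 for CDH2, −0.37 to −0.31 for CDH3, −0.96 to −0.78 for CDH6, −2.82 to −2.26 for CDH11, −0.42 to −0.34 for CTNNB1 and 0.16 to 0.26 for CTNNA1. CDH2 changed sign without passage 18 (0.20), since that array holds its highest value. Members that rose numbered 0 to 1 and members that fell 2 to 4; fewer arrays were fitted each time. Under the other alternatives, 54 of 55 member differences kept direction and side of the threshold, and the exception was CDH1 with the shift of its neighbours taken off (0.20, adjusted p = 0.216), when 0 members rose. The CDH2 passage slope was −0.073 after quantile normalisation (adjusted p = 0.0688) and −0.068 with dim genes left out (adjusted p = 0.0556), and the CDH1 passage slope, near 0 throughout, was 0.00092 after quantile normalisation against −0.0018; the cause was not tested. Of the list genes, differences that did not pass changed sign for JUP (0.10) and ZEB1 (0.14) with neighbours taken off, and for GRHL2 with array weights (0.065) and with arrays left out (−0.14 to 0.034). Calls of list genes ended after quantile normalisation for HGS (adjusted p = 0.0568), KLF8 (0.0653) and ESRP2 (0.0567), after median centring for TWIST2 (0.0586) and with a trended robust variance for HGS (0.0547). VCL passed after quantile normalisation (0.0280), with a pseudocount of 16 (0.0479), with dim genes left out (0.0493) and with array weights (0.00355). Over all genes, 1665 rose and 1604 fell, against 2596 and 2746 with array weights, 949 and 939 without passage 38, and 1035 and 1059 without 35 weeks. Passage slopes passed for 4 genes, against 0 after quantile normalisation, 0 with dim genes left out and 13 with a trended robust variance; weeks slopes passed for 46, against 3, 31 and 109. No paired analysis was possible because the replicate numbers only follow the order of the arrays and pair no samples. Signal over background is unknown, which limits CDH6 and the dim list genes most.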
